A study of Mus musculus with 4 samples.

Results

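Described here are 10 cytokine genes with growth or survival functions in the thymus, as expressed in medullary thymic epithelial cells (mTECs), the stromal cells of the thymic medulla. They are *Il7*, *Il15*, *Kitl*, *Tslp*, *Flt3l*, *Csf1*, *Csf2*, *Il6*, *Lif* and *Tnfsf13b*. They were chosen by name, and all 10 were found among the 23337 gene symbols of the deposited count table. RNA was sequenced from mTECs sorted as CD45-EpCAM+UEA-1+Ly51- cells from thymi of 4-week-old C57BL/6 mice. The 2 WT libraries came from mice labelled wild type, which the study's methods describe as *Foxn1*-Cre negative littermates or age-matched animals. The other 2 libraries carry the genotype label Sirt6-/-, and are called cKO-labelled (cKO 1 and cKO 2) here because the methods describe conditional knockout (cKO), *Foxn1*-Cre *Sirt6* loxp/loxp mice. *Foxn1*-Cre acts in thymic epithelial cells, cortical and medullary alike, so the deletion is not restricted to mTECs. The methods call the 2 samples of each group independent without saying whether each came from 1 animal or a pool, so p-values measure only the spread between these samples, which may be technical.

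Thymic epithelial cells feed developing T cells with a small set of secreted or membrane-bound cytokines. *Il7* encodes the main survival factor of early thymocytes, *Kitl* (stem cell factor) and *Flt3l* encode ligands of the receptor tyrosine kinases KIT and FLT3 on progenitors, and *Il15* encodes a factor for natural killer, NKT and CD8+ lineage cells. *Tslp* encodes a relative of IL-7 that acts on dendritic cells, *Csf1* and *Csf2* encode macrophage and granulocyte-macrophage growth factors, *Il6* and *Lif* encode ligands that signal through gp130, and *Tnfsf13b* encodes the B cell survival factor BAFF. Several of these genes are known targets of NF-κB in other cells, and the study asked about NF-κB signaling in these cells.

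For that reason the 250 bases before the RefSeq start of each gene (GRCm38.p6) were searched for the κB motif on both strands. The promoter table held 7 of the 10 genes, and *Il7*, *Il15* and *Tslp* were not in it. A κB match was found in *Csf1*, *Il6*, *Kitl* and *Lif*, which is 4 of 7, whereas 7.25% of all 32851 promoter windows of that length held one. Several of these genes were known NF-κB targets beforehand, so this comparison does not test enrichment. It also sets genes against windows, and *Tnfsf13b* had more than 1 window. The motif is rich in G and C, which made up 69.2% of the window in *Kitl*, 63.6% in *Lif*, 56.4% in *Csf1* and 42.8% in *Il6*. The median of all windows was 52.4%. *Flt3l*, *Csf2* and *Tnfsf13b* had none in this window. The matches are shown on each gene's strand, 5′ to 3′, with the match in capitals and 10 bases on each side.
Kitl: ccaacctctgGGAAGATCCCcgcccttcag
Csf1: gggccttgagGGAAAGTCCCtaggggccag
Il6: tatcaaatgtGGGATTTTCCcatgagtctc
Lif: atcaagtacaGGGACGCCCCctccccacac
The windows lie at chr10:100015659-100015688 (plus strand) for *Kitl*, chr3:107760604-107760633 (minus strand) for *Csf1*, chr5:30013060-30013089 (plus strand) for *Il6* and chr11:4257380-4257409 (plus strand) for *Lif*. The match starts 152 bases before the RefSeq start in *Kitl*, 154 in *Csf1*, 44 in *Il6* and 178 in *Lif*. The match in *Kitl* lies inside an exon as GENCODE draws it, since that annotation starts the gene farther upstream, and the other 3 matches lie outside GENCODE exons of their gene. The motif TGANTCA, bound by AP-1, was found on either strand in 3 of the 7 genes (*Il6*, *Lif* and *Tnfsf13b*) and in 6.75% of all windows. TTCNNNGAA, bound by STAT factors, was in 0 of the 7 and in 7.02% of all windows. No matches of different motifs overlapped. These are matches of letters, and occupancy was not measured in these libraries.

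The libraries held between 61102704 and 65907745 counts. *Sirt6* itself, the targeted gene, had 622 and 755 counts in WT, against 882 and 835 in the cKO-labelled pair. The log2 fold change of *Sirt6* (log2FC, cKO-labelled over WT) was 0.37, with a standard error (SE) of 0.32 and an adjusted p = 0.80 (edgeR, quasi-likelihood test with Benjamini-Hochberg adjustment). The targeted gene was thus not lower in the cKO-labelled libraries. A count over the whole gene does not show whether the floxed exons are missing, and each direction given here rests on the labels. The paper reports that *Sirt6* was inactivated in its mice. It cites genotyping, a western blot of cultured thymic epithelial cells, and quantitative PCR in sorted medullary and cortical cells. mTEC markers were expressed in every library, in TPM (transcript abundance scaled for transcript length and library) from *Cd74* with a mean of 19210 to *Tnfrsf11a* with 10.7, and none of the 12 was at 0. Transcripts of blood cells were present as well despite the gate on CD45- cells, with the CD45 gene *Ptprc* at 139 TPM on average.

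Levels of different genes were compared per transcript length, in TPM. *Il7* was the most abundant of the 10 cytokines in each of the 4 libraries, at 103 and 106 TPM in WT, against 97.8 and 125 TPM in the cKO-labelled pair. In WT it was followed by *Flt3l* (79.7 ± 20.9 TPM; SD, n = 2), *Csf2* (72.1 ± 9.85), *Il15* (47.7 ± 6.90) and *Csf1* (44.9 ± 7.47). A gap separated these 5 genes (*Il7* included) from the other 5. *Il6* stood at 13.9 ± 2.83 TPM, *Kitl* at 9.91 ± 1.43, *Lif* at 7.31 ± 0.996, *Tnfsf13b* at 6.58 ± 0.824 and *Tslp* at 1.68 ± 1.36 (SD, n = 2 each). The 2 values of neighbours in this order overlapped between *Flt3l* and *Csf2*, between *Il15* and *Csf1*, and between *Lif* and *Tnfsf13b*, so their order in WT is not settled.

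In the cKO-labelled libraries, *Il7* (111 ± 19.1 TPM; SD, n = 2) and *Csf2* (83.0 ± 1.53) came first. *Csf1* (60.9 ± 5.45), *Flt3l* (59.4 ± 14.9) and *Il15* (53.4 ± 3.77) followed, with overlapping values. *Kitl* came next with 29.2 ± 14.3 TPM and thus stood above *Il6* (16.1 ± 3.65), while it stood below *Il6* in both WT libraries. In cKO 2 *Kitl* and *Il6* were nearly level, at 19.1 and 18.7 TPM, against 39.3 and 13.6 TPM in cKO 1. *Lif* was at 10.5 ± 3.29 TPM, *Tnfsf13b* at 3.46 ± 1.01 and *Tslp* at 2.27 ± 1.86 (SD, n = 2 each), and the values of the last pair overlapped. *Kitl* made up 2.96% and 2.19% of the summed TPM of the 10 cytokines in WT and 9.35% and 4.35% in the cKO-labelled libraries. The sum itself was 370 and 407 TPM in WT, against 420 and 439 TPM in the cKO-labelled pair. For 9 of the 10 genes the ratio of TPM to CPM (counts scaled to library size with TMM factors) changed by a factor of at most 1.03 across libraries, and for *Csf1* by 1.05, so both scales carry nearly the same values.

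**Figure D1:**
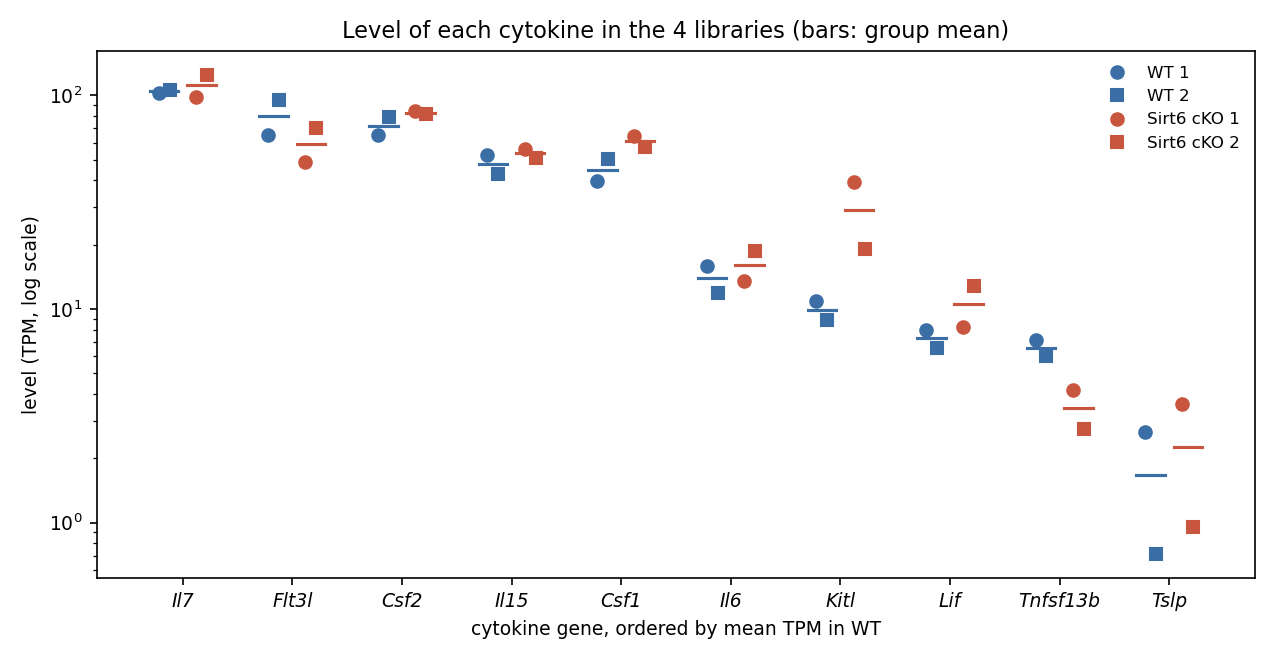
Level of the 10 cytokine genes in TPM (log scale) in each library, ordered by the WT mean; circles and squares are replicates 1 and 2 and short bars are group means. *Il7* is highest in all 4 libraries, *Kitl* lies at 8.90 and 10.9 TPM in WT and at 39.3 and 19.1 TPM in the cKO-labelled libraries, and *Tslp* differs more between replicates than between groups.

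Expression of the cytokines was compared between the groups with the test fitted on all 18547 genes that passed the filter on low counts. All 10 cytokines passed it. *Kitl* was the 1 cytokine with an unadjusted p under 0.05, and it was higher in the cKO-labelled libraries. That is 1 of 10, against 8.58% of all genes tested in either direction, 5.27% that were higher and 3.32% that were lower. The share among the cytokines was therefore close to that of all genes. At a Benjamini-Hochberg adjusted p of 0.05 over all genes, edgeR called 0 of the 10 cytokines and 0.00539% of all genes. DESeq2 called 1 of the 10 (*Kitl*) and 1.88% of the 18961 genes to which it gave an adjusted p. Limma called 0 of the 10, against 0.0377% of all genes on log2(TPM + 1) and 0.0108% on log2(TPM + 0.1). The log2FC was above 0 for 8 cytokines and below 0 for *Flt3l* and *Tnfsf13b*, with a median of 0.22 against 0.00 (-0.0047) for all genes tested. The CPM of the groups did not overlap for 5 of the 10, namely *Kitl*, *Csf1*, *Csf2* and *Lif*, which were above WT, and *Tnfsf13b*, which was below. Among all genes tested 41.9% did not overlap in CPM, 21.6% being higher in the cKO-labelled libraries and 20.3% lower. By total counts alone, without the TMM factors, the groups of *Csf2* and *Lif* overlapped, and the share of all genes on that scale was not counted. In bulk RNA, a different share of producing cells and a different amount of RNA per cell cannot be told apart.

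**Figure D2:**
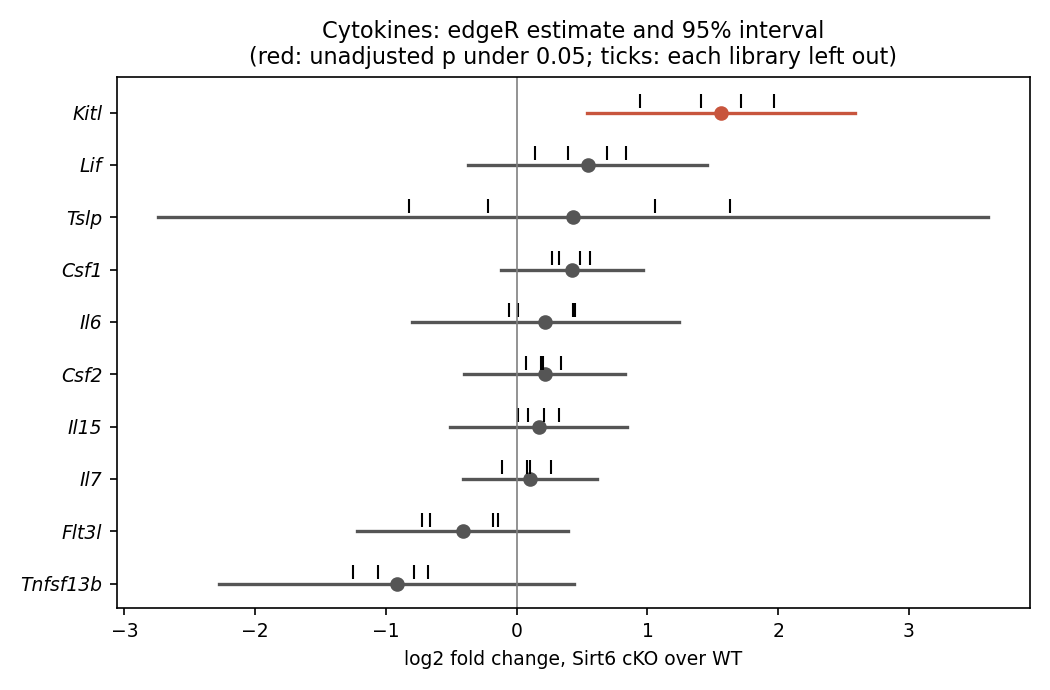
Log2FC of each cytokine, libraries labelled *Sirt6* cKO over WT, with the edgeR estimate (point) and its 95% interval (line), and black ticks for the estimate with each of the 4 libraries left out. The interval of *Kitl* (0.54 to 2.59) is the 1 that leaves out 0, and the ticks of *Tslp* lie on both sides of 0.

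*Kitl*, on chromosome 10 from 100015630 to 100100416 on the plus strand of GRCm38, had 1798 counts in WT 1, 1384 in WT 2, 5934 in cKO 1 and 3039 in cKO 2. Both libraries labelled *Sirt6* cKO lay above both WT libraries, and they differed from each other by a factor of 2.08 in CPM, against 1.26 between the WT libraries. The mean was 24.6 ± 4.05 CPM in WT, against 72.9 ± 36.0 CPM in the cKO-labelled pair (SD, n = 2 each). The log2FC was 1.57 (SE 0.41), a 2.96-fold difference with a 95% interval from 1.46-fold to 6.02-fold. edgeR gave an unadjusted p = 0.0105 and an adjusted p = 0.54, and DESeq2 gave an adjusted p = 0.0188. The call did not hold without cKO 1 or without WT 2. Without cKO 1 the difference was 1.93-fold (unadjusted p = 0.0526 by edgeR), and without WT 2 it was 2.65-fold (unadjusted p = 0.0523 from the same test). The counts do not separate the membrane-bound from the soluble form of the factor. *Kit*, which encodes its receptor, had 3878 and 4422 counts in WT, against 2887 and 3050 in the cKO-labelled pair. Those values did not overlap and ran opposite to the ligand, with a log2FC of -0.43 (SE 0.22, unadjusted p = 0.105 by edgeR).

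*Flt3l* lies on chromosome 7 from 45129788 to 45136432 on the minus strand. It had 2108 and 2900 counts in WT, against 1454 and 2199 in the cKO-labelled pair. The groups overlapped, because cKO 2 lay above WT 1. This gave a log2FC of -0.41 (SE 0.32, adjusted p = 0.77 by edgeR), with a 95% interval in fold from 0.429 to 1.31. Its exons overlap those of the annotated readthrough gene *Gm45713* on the same strand by 856 bases, so reads of both cannot be told apart in that stretch. *Flt3*, the receptor gene, had 1237 and 466 counts in WT, wider apart than the 656 and 609 counts of the other libraries.

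*Il7*, on chromosome 3 from 7569994 to 7613760 on the minus strand, had 7670 and 7474 counts in WT, against 6705 and 9031 in the cKO-labelled pair. The WT values fell between the other two. Its log2FC was 0.10 (SE 0.20, adjusted p = 0.93 by edgeR), and the 95% interval ran from 0.753-fold to 1.53-fold. Its exons overlap those of the antisense gene *Gm16685* by 105 bases, where reads cannot be assigned without strand. *Il15*, on chromosome 8 from 82331632 to 82403222 on the minus strand, had 2034 and 1566 counts in WT, against 1989 and 1901 in the cKO-labelled pair. Here too the groups overlapped, with a log2FC of 0.17 (SE 0.27) and a 95% interval from 0.703-fold to 1.80-fold. The receptor chains of both cytokines were expressed in the sorted cells. *Il2rg*, the shared gamma chain, was the most abundant receptor gene of the list with 515 ± 66.1 TPM (SD, n = 2) in WT and 424 ± 46.5 TPM (SD, n = 2) in the cKO-labelled libraries. *Il7r* had 3515 and 4834 counts in WT, against 3140 and 4120 in the cKO-labelled pair, and the log2FC values of *Il7r*, *Il2rg*, *Il15ra* and *Il2rb* were -0.16, -0.28, -0.08 and -0.43. None of these 4 passed an unadjusted p of 0.05 in edgeR's test.

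*Tslp*, on chromosome 18 from 32815383 to 32819797 on the plus strand, was the rarest of the cytokines, with 91 counts in WT 1, 24 in WT 2, 114 in cKO 1 and 32 in cKO 2. Between replicates the CPM differed 3.69-fold in WT and 3.79-fold in the cKO-labelled pair. In each group the library labelled replicate 1 was the higher one. The log2FC of 0.43 had a SE of 1.26 and turned to -0.82 without cKO 1 and to -0.22 without WT 2, so no difference between the groups was detectable against this spread. *Crlf2*, the gene of the TSLP receptor chain, had 330 and 329 counts in WT, against 539 and 187 in the cKO-labelled pair.

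The estimates of the myeloid growth factors *Csf1* and *Csf2* lay above 0, and the test called neither. In CPM the groups of each did not overlap, as was the case for 41.9% of all genes tested. *Csf1*, on chromosome 3 from 107741048 to 107760469 on the minus strand, had 4254 and 4975 counts in WT, against 6179 and 5737 in the cKO-labelled pair. The groups did not overlap, and the mean was 71.6 ± 9.33 CPM in WT, against 95.9 ± 9.14 CPM in the cKO-labelled pair (SD, n = 2 each). A log2FC of 0.42 was estimated (SE 0.22, unadjusted p = 0.103 and adjusted p = 0.65 by edgeR), with a 95% interval from 0.920-fold to 1.95-fold. *Csf2*, on chromosome 11 from 54247271 to 54249667 on the minus strand, had 2032 and 2331 counts in WT, against 2406 and 2474 in the cKO-labelled pair. Its groups were separated by a small gap, from 36.6 CPM in WT 2 to 38.6 CPM in cKO 2. By total counts alone, without the TMM factors, they overlapped. The log2FC was 0.21 (SE 0.24, adjusted p = 0.86 by edgeR), and the 95% interval ran from 0.758-fold to 1.77-fold. The antisense gene *Gm12223* overlaps its exons by 96 bases.

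Among the receptor genes listed for these factors, *Csf2rb* and its close copy *Csf2rb2* were the 2 that the test called at the unadjusted p. *Csf2rb*, which encodes the common beta chain shared with the receptors of IL-3 and IL-5, had 10902 and 15968 counts in WT, against 25703 and 21726 in the cKO-labelled pair. The groups did not overlap, and the log2FC was 0.87 (SE 0.26, unadjusted p = 0.0170 and adjusted p = 0.54 by edgeR). *Csf2rb2*, the beta chain of the mouse IL-3 receptor, had 2329 and 3529 counts in WT, against 10299 and 5331 in the cKO-labelled pair, a log2FC of 1.48 (SE 0.42, unadjusted p = 0.0152 and adjusted p = 0.54 by edgeR; 0.0308 with DESeq2). Both genes are neighbours on chromosome 15 and close copies. Of the 50-base words in the longest transcript, 18.4% of those of *Csf2rb* also occur in *Csf2rb2* and 19.0% of those of *Csf2rb2* in *Csf2rb*, so their separate counts are uncertain. Each lost its call without cKO 1 (log2FC values of 0.70 and 0.87) and without WT 1 (0.58 and 1.17). *Csf2ra*, the ligand-binding chain, had a log2FC of -0.26 (SE 0.23), and *Csf1r*, the receptor gene for CSF1 and a macrophage marker, one of -0.56 (SE 0.32) with 7774 and 4358 counts in WT, against 3561 and 4379 in the cKO-labelled pair. Neither passed an unadjusted p of 0.05 in edgeR's test.

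*Lif*, on chromosome 11 from 4257557 to 4272514 on the plus strand, had 921 and 716 counts in WT, against 863 and 1450 in the cKO-labelled pair. In CPM the lowest of the latter, 14.3 in cKO 1, was barely above the 14.1 of WT 1. Its log2FC was 0.54 (SE 0.36, adjusted p = 0.73 by edgeR) and 0.14 without cKO 2. *Il6*, on chromosome 5 from 30013114 to 30019981 on the plus strand, had 523 and 370 counts in WT, against 409 and 596 in the cKO-labelled pair. Its groups overlapped, and the log2FC of 0.22 had a SE of 0.41. Of the receptor chains, *Lifr*, which encodes the LIF-binding chain, had 12993 and 14583 counts in WT, against 6967 and 7659 in the cKO-labelled pair. The groups lay far apart compared with their replicates, at 214 ± 21.7 CPM (SD, n = 2) and 117 ± 2.81 CPM (SD, n = 2). The log2FC was -0.86 (SE 0.18, unadjusted p = 0.00366 and adjusted p = 0.54 by edgeR), and DESeq2 gave an adjusted p = 0.0112. Its unadjusted p stayed under 0.05 with each of the 4 libraries left out, at log2FC values from -0.99 to -0.76. On the TPM scale the difference was smaller, with a log2FC of -0.68 on log2(TPM + 1), and the ratio of TPM to CPM of *Lifr* changed by a factor of 1.304 across the libraries. *Il6st*, which encodes gp130, and *Il6ra* had log2FC values of -0.15 (SE 0.35) and -0.04 (SE 0.28).

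*Tnfsf13b*, on chromosome 8 from 10006467 to 10039072 on the plus strand, had the largest difference toward WT among the 10 cytokines. Its counts were 368 and 291 in WT 1 and WT 2, and fewer, 197 and 137, in cKO 1 and cKO 2. The groups did not overlap, with means of 5.10 ± 0.742 CPM in WT, against 2.70 ± 0.798 CPM in the cKO-labelled pair (SD, n = 2 each). The log2FC was -0.92 with a SE of 0.54, and the test did not call it (unadjusted p = 0.146, adjusted p = 0.70 by edgeR). The 95% interval in fold ran from 0.207 to 1.36. Its 3 receptor genes, *Tnfrsf13b*, *Tnfrsf13c* and *Tnfrsf17*, had log2FC values of -0.44, 0.18 and -0.41, with overlapping groups.

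Over the whole list of 17 receptor chains, 2 genes were higher (*Csf2rb* and *Csf2rb2*) and 1 was lower (*Lifr*) at an unadjusted p of 0.05. These 3 are 17.6% of the list, against 8.58% of all genes tested (5.27% higher and 3.32% lower). The 2 higher genes are close copies that share sequence, so their calls may not be separate. The median log2FC was -0.26, with 13 genes below 0 and 4 above. In a list of 18 genes that act downstream of these receptors, *Stat5a* was the 1 gene called, which is 5.56% of the list and close to the 5.27% of all genes that were higher. *Stat5a*, one of the closely related STAT5 genes through which IL-7, GM-CSF and TSLP signal, had 12099 and 11933 counts in WT, against 17491 and 19460 in the cKO-labelled pair. Its groups lay well apart, with a log2FC of 0.67 (SE 0.16, unadjusted p = 0.00657 and adjusted p = 0.54 by edgeR), and the unadjusted call held with each of the 4 libraries left out. Of its 50-base words, 10.8% also occur in *Stat5b*, whose log2FC was 0.36 (SE 0.21), and its exons overlap those of *Stat3* on the other strand by 72 bases. The median of the signalling list was 0.33, with 14 genes above 0. In CPM the groups did not overlap for 15 of its 18 genes (83.3%), 12 of them higher in the cKO-labelled libraries. The shares of all genes tested were 41.9% in either direction and 21.6% higher. This separation depends on the scaling. Without the TMM factors, by total counts alone, the groups of *Jak1*, *Stat6*, *Ptpn11* and *Pim2* overlapped, all of them counted here as higher. How many of all genes overlap on that scale was not counted.

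Of 20 related ligands of the same families, 19 passed the filter and 0 were called at an unadjusted p of 0.05 by edgeR or DESeq2, while limma on TPM called 1 (*Il27*). *Il2* had 0 counts in WT 1 and in cKO 1, and did not pass the filter. The most abundant was *Il23a*, a subunit of IL-23, with a mean of 850 TPM over the 4 libraries, above each of the 10 cytokines described here. Its counts were 36157 and 23329 in WT, against 32917 and 41405 in the cKO-labelled pair, with overlapping groups. The median log2FC of the related ligands was 0.23.

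**Figure D3:**
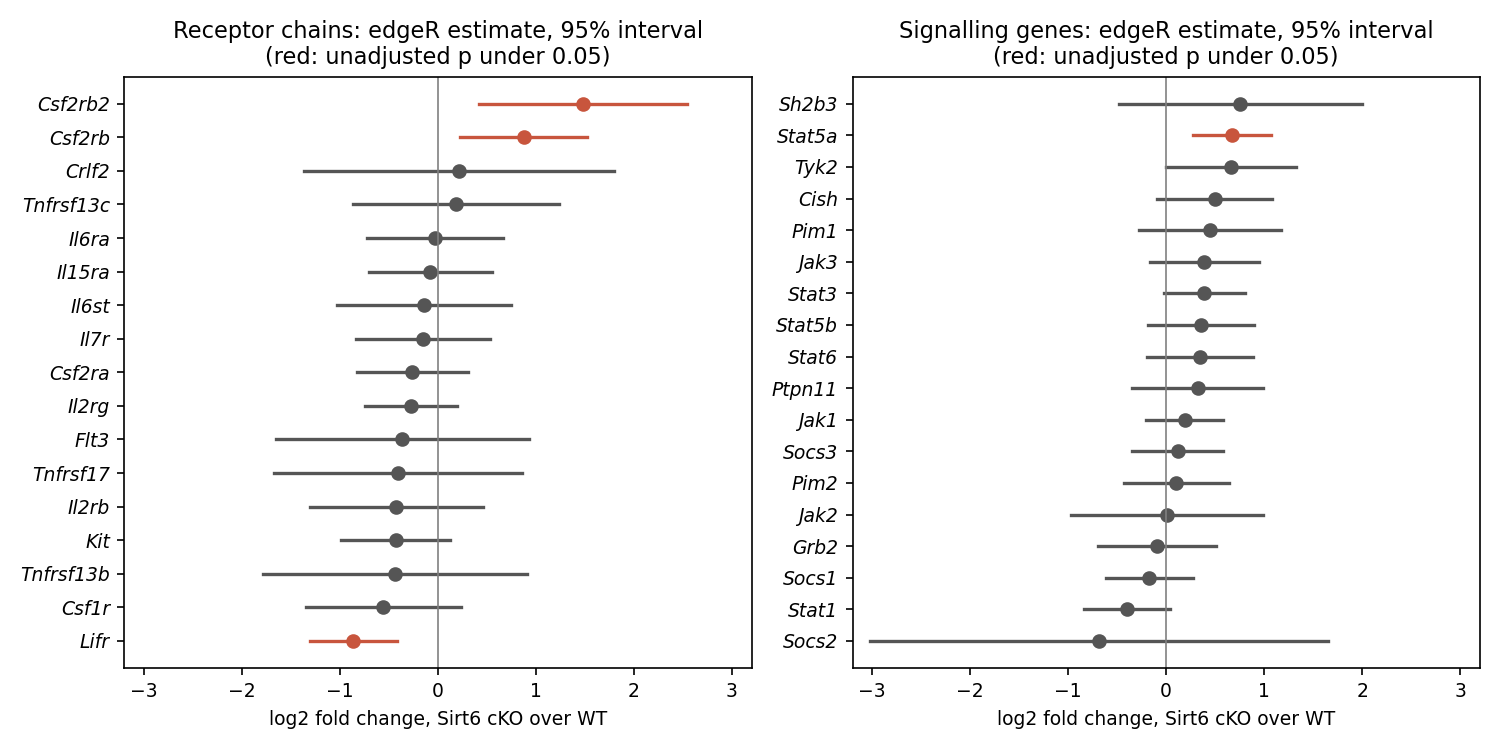
Log2FC, libraries labelled *Sirt6* cKO over WT, of the 17 receptor chains (left) and the 18 signalling genes (right), with edgeR estimates (points) and 95% intervals (lines). *Csf2rb2*, *Csf2rb* and *Stat5a* lie to the right of 0 and *Lifr* to the left, and the intervals of the other genes contain 0.

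Because several of the cytokines are also made by other cells of the thymus, marker lists were measured in the same libraries. Whether a marker transcript came from those cells or from mTECs themselves was not tested. For *Kitl* and *Lif*, which fibroblasts and endothelial cells make too, the summed level of 9 fibroblast markers ranged from 665 to 740 TPM in WT and from 639 to 679 TPM in the cKO-labelled libraries. That of 6 endothelial markers ranged from 46.3 to 76.1 TPM and from 48.0 to 60.8 TPM. The fibroblast sum was mostly *Dcn*, with a mean of 503 TPM. At an unadjusted p of 0.05, 1 of 9 fibroblast markers (*Lum*) was lower. The log2FC was above 0 for 7 of the 9, with a median of 0.25, and *Col1a2* (0.56), *Col3a1* (0.58) and *Fn1* (0.61) had higher values in the cKO-labelled libraries without overlap, the direction of *Kitl*, though none of these 3 was called. Of 6 endothelial markers 0 were called by edgeR, DESeq2 or limma, and the log2FC was above 0 for 2 and below 0 for 4, with a median of -0.13. The part of either cell type in the values of *Kitl* and *Lif* was not tested. For *Tnfsf13b* and *Csf1r*, which macrophages express, 11 markers of macrophages and dendritic cells (*Csf1r* and *Flt3* among them) summed to between 6168 and 9827 TPM in WT and between 3856 and 4148 TPM in the cKO-labelled libraries. Most of that sum was *Lyz2*, with a mean of 5773 TPM. At the unadjusted p, 3 of the 11 (*Emr1*, an older symbol of *Adgre1*, *Cd68* and *Lyz2*) were lower, against 3.32% of all genes tested. The log2FC was below 0 for 8 of the 11, with a median of -0.36. It was above 0 for 3, none of them called: *Itgam* (0.57), *Siglech* (0.20) and *Zbtb46* (0.56), the last without overlap in CPM. In TPM the groups of *Zbtb46* overlapped, with 14.6 in WT 2 against 14.5 in cKO 1. The part of these cells in the lower *Tnfsf13b* was not tested.

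For *Il7*, which cortical epithelium makes as well, 8 cortical markers summed to 1675 and 1760 TPM in WT, against 1817 and 1547 TPM in the cKO-labelled pair. Most of that sum was *Tbata*, with a mean of 1172 TPM. At the unadjusted p, 2 of the 8 (*Ly75* and *Dll4*) were higher, against 5.27% of all genes tested. The log2FC was above 0 for 4 and below 0 for 4, with a median of -0.03. *Prss16* (-0.41) was lower without overlap and was not called. Markers of *Ccl21a*-expressing immature mTECs summed to 2474 and 5798 TPM in WT and to 857 and 1155 TPM in the cKO-labelled libraries, and 2 of 6 (*Ccl21a* and *Ccl21b*, which are close copies and make up most of the sum) were lower. The other 4 markers of that list were not called, with log2FC values of 0.16 for *Krt15*, 0.07 for *Ly6a*, -0.08 for *Pdpn* and 0.41 for *Itga6*, the last without overlap between the groups. The median of the list was 0.00 (-0.0032). The 7 tuft cell markers summed to 204 and 243 TPM in WT, against 135 and 120 TPM in the cKO-labelled pair. At the unadjusted p, 4 of 7 (*Trpm5*, *Gnat3*, *Avil* and *Alox5*) were lower, against 3.32% of all genes tested. The other tuft markers were not called and went both ways. *Il25* (log2FC -1.49) was lower without overlap, *Pou2f3* (0.24) was higher without overlap in CPM, and *Dclk1* (0.36) was higher with overlap. In TPM the groups of *Pou2f3* overlapped, with 39.1 in WT 2 against 38.9 in cKO 2. Of the 12 mTEC markers, 3 (*Epcam*, *Aire* and *Cd80*) were higher at the unadjusted p by edgeR, against 5.27% of all genes tested. DESeq2 called *Krt5* in addition, and limma on TPM called *Cd40* in addition. The log2FC was above 0 for 9 and below 0 for 3, with a median of 0.33. Those below 0 were *Cldn3* (-0.31, without overlap), *Fezf2* (-0.195) and *Cd74* (-0.06), none of them called. The sums of mTEC markers lay between 37130 and 42910 TPM in all 4 libraries. Most of each sum was *Cd74*, with a mean of 19210 TPM, and *H2-Aa*, with 15070 TPM in WT and 15980 TPM in the cKO-labelled pair. The sums thus mainly follow these genes and not the other markers of the list. Neither 10 thymocyte markers nor 6 B cell markers nor *Ptprc* held a gene called by edgeR or DESeq2 at the unadjusted p, and limma on TPM called 2 of the thymocyte markers (*Cd3d* and *Cd8b1*). Thymocyte markers summed to between 591 and 1187 TPM and B cell markers to between 400 and 470 TPM. No marker was at 0 in all libraries, and *Pax5* had a 0 count in a library of each group. The lower *Ccl21a* and *Ccl21b* and the lower summed levels of tuft cell and macrophage markers moved with the labels, and their part in the values of the 10 cytokines was not tested.

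**Figure D4:**
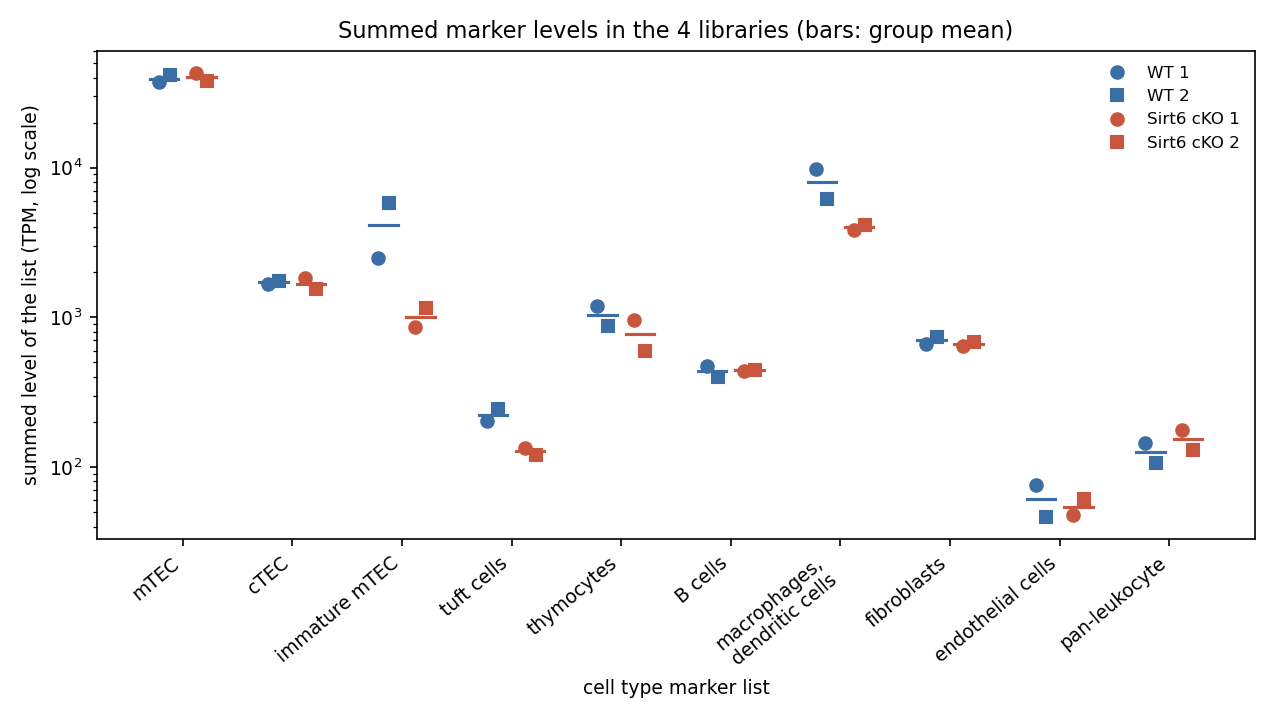
Summed TPM (log scale) of each cell type marker list in the 4 libraries; circles and squares are replicates 1 and 2 and bars are group means. The sums for immature mTECs (mostly *Ccl21a* and *Ccl21b*, the other 4 markers not being called), tuft cells and macrophages with dendritic cells lie lower in both libraries labelled *Sirt6* cKO, and the fibroblast and endothelial lists overlap between the groups.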

How the data were processed

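Per the labels and the study's methods, reads were aligned by the authors with HISAT2 2.1.0 (mm10) after trimming in Trim Galore, and StringTie 1.3.3 quantified genes. The deposited counts are whole numbers per gene symbol without normalization, and the deposited TPM values sum to 1000000 per library after a last line that held the column total was left out. Gene annotation and strand setting are not given in the sources used here.

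Counts of all 23337 genes were tested with edgeR 4.0.16 in R 4.3.3 (TMM, filterByExpr with a minimum count of 10 and total of 15, glmQLFit and glmQLFTest), without covariates, on the 4 libraries. Standard errors are the log2 fold change divided by the square root of F, and 95% intervals use the degrees of freedom of the test. Benjamini-Hochberg adjustment covered 18547 genes, with a threshold of 0.05. The biological coefficient of variation was 0.557. An exact permutation test of 2 libraries against 2 cannot go below p = 0.333. Alternatives were DESeq2 1.42.0, upper quartile factors, library size alone, no filter, TPM over 0.1 in all libraries, the replicate number as a block, limma 3.58.1 on log2(TPM + 0.1) and log2(TPM + 1), and leaving out single libraries, where the lone library of a group is assumed to vary like the other group. All libraries differed by more than sampling noise. The procedure was also run on simulated counts in which all genes had the same dispersion. That run does not check how single genes vary in these libraries. Positions, exon overlaps and shared 50-base words come from GENCODE on GRCm38, the assembly of mm10, and promoter windows from RefSeq on GRCm38.p6. The cytokines and the lists were chosen with earlier results of these data known. All 10 cytokines are named, and genes of the receptor, signalling and related ligand lists are named when called at the unadjusted p without overlap, or as the partner of a cytokine. *Tyk2*, *Il27*, *Jak1*, *Stat6*, *Ptpn11* and *Pim2* are named for their part in a count and *Il2*, *Stat5b*, *Ptprc* and *Il23a* for their level or filter. Markers other than the most abundant of a list are named for their count, level or direction, chosen after their values were seen.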

Additional observations from a re-analysis of the deposited data

How the results depend on the processing

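With DESeq2, other scalings or filters, the block and limma on TPM, the log2 fold changes of the 10 cytokines kept their direction and their side of the unadjusted p in 80 of 80 values. *Kitl* then lay between 1.39 and 1.57 on the log2 scale, with adjusted p from 0.0188 (DESeq2) to 0.78 (replicate block). DESeq2 called 1 cytokine at an adjusted p of 0.05, where edgeR called 0. With 1 library left out, 34 of 40 values kept direction and call. The direction turned for *Il6* (-0.0595, with a range to 0.44) and *Il7* (-0.11, with a range to 0.26) without cKO 2, and for *Tslp* without cKO 1 (-0.82) and without WT 2 (-0.22, with a range to 1.63). The count of cytokines called at the unadjusted p then ranged from 0 (without cKO 1 or WT 2) to 1, that at the adjusted p stayed at 0, and *Kitl* ranged from 0.95 to 1.97. Over all genes the count called ranged from 726 (without cKO 1) to 1765, against 1592, and that of receptor genes from 1 (without cKO 1 or WT 1) to 4. Signalling genes called ranged from 1 to 4 (without WT 2) and related ligands from 0 to 3 (without WT 1). DESeq2, library size alone, upper quartile factors, no filter and the filter on TPM each called 2 signalling genes, with *Tyk2* the gene added by DESeq2, and limma on log2(TPM + 1) or log2(TPM + 0.1) called 1 related ligand. The cause of these shifts was not tested. Of the calls, the share that was higher depended on the scaling, with 977 genes higher and 615 lower with TMM factors, 751 and 800 with upper quartile factors, and 721 and 838 with library size alone. The replicate block left 1 cytokine (*Kitl*) called at the unadjusted p and 1146 of all genes. The replicate numbers are not known to pair the samples, and deviations of same-numbered libraries from their group means correlated at -0.05 across genes. Counting error is small for all cytokines but *Tslp*, so 2 libraries per group limit the precision more than depth does.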
